A study of Mus musculus with 6 samples.

Results

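The genes described here belong to the Wnt pathway: the Wnt ligands, their secreted inhibitors and potentiators, the receptors that bind them, and the cytoplasmic and nuclear proteins that pass the signal on. They were chosen by a rule on gene symbols that uses no measured value, though with earlier results of these data known. Taken were all probes whose symbol begins with Wnt, Fzd, Sfrp, Dkk, Rspo or Dvl followed by a digit, and those of a named set of further components, from Wif1 and Frzb to Axin1, Ctnnb1, Lef1 and Lgr5. The rule found 113 probes for 62 symbols, of 45281 probes and 19057 genes with a probe in all. One of the 62, Fzd10os, is an antisense transcript beside Fzd10 and no receptor. Tcf7, also named by the rule, was not analysed here.

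Per the labels, RNA came from sciatic nerves of 14-day-old mice, taken from 3 mutant samples and 3 control samples with 1 bead array each. The design text speaks of tissue-cultured cells instead, and the labels are followed here. In the mutants a P0-Cre transgene, whose promoter is active in Schwann cells, is combined with a Dicer mutation. Their genotype label, P0 Cre Dicer F or N, does not say which Dicer allele or alleles are meant. The controls are labelled control littermates, and their alleles are not given in the sources used here. Both sexes are named for every sample. The labels do not say how many animals went into an array, so the p-values measure spread between samples that may be technical. Dicer is an RNA-cutting enzyme that makes mature microRNAs from their precursors.

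Wnt proteins are secreted lipid-modified ligands that bind Frizzled receptors together with the co-receptors LRP5 and LRP6. In the canonical branch this stops a destruction complex built on Axin and APC from removing beta-catenin, which then enters the nucleus and acts on genes through TCF/LEF factors. Frizzled-related proteins, Dickkopf proteins and WIF1 act outside the cell and hold the signal down, while R-spondins and their LGR receptors raise it. In peripheral nerve, canonical Wnt signalling is known for a part in the start of myelination by Schwann cells.

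Values are the deposited normalized signals on a log2-like scale, and every difference is mutant minus control on that scale. The brightest 18420 probes by their mean across the 6 arrays were tested with limma, with Benjamini-Hochberg adjustment over all of them, and a gene was called at an adjusted p under 0.05. Each gene is represented by its brightest tested probe. Array to array correlations were 0.973 to 0.993 among the mutants, 0.992 to 0.995 among the controls and 0.912 to 0.942 between the groups, and mutant replicate 1 stood apart from the other mutants. Dicer1 has 3 probes, of which the brightest differed by -0.02 with an adjusted p of 0.832 by limma and the second was lower in the mutants with an adjusted p of 0.0458, or 0.0529 with the replicate number as a block. Where these probes lie relative to the deleted part is not known, so they do not check the genotype.

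Of the 62 symbols, 34 had at least 1 probe bright enough to be tested, with 47 probes among them. In the mutant nerves 9 of these 34 genes were called higher (26.5%) and 4 were called lower (11.8%), against 22.0% higher and 17.6% lower among all 10273 genes tested. The 13 called genes were 38.2% of the tested members, against 39.6% of all genes. Of the called genes 5, namely Sfrp1, Wnt6, Sfrp5, Frzb and Nkd1, differed by at least 1, which is 14.7% of the 34, against 5.57% of all genes. All of these 5 encode a ligand or an inhibitor. The groups did not overlap for 15 members (44.1%), against 55.2% of all genes. The median difference was 0.05 over the members and 0.01 over all genes, and the median size of the difference was 0.145 over the members and 0.201 over all genes. By probes, 19 of the 47 were called (40.4%), against 35.8% of all 18420. Fzd10 and Fzd10os passed the brightness filter through 1 group only, the mutants for Fzd10 and the controls for Fzd10os.

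**Figure D1:**
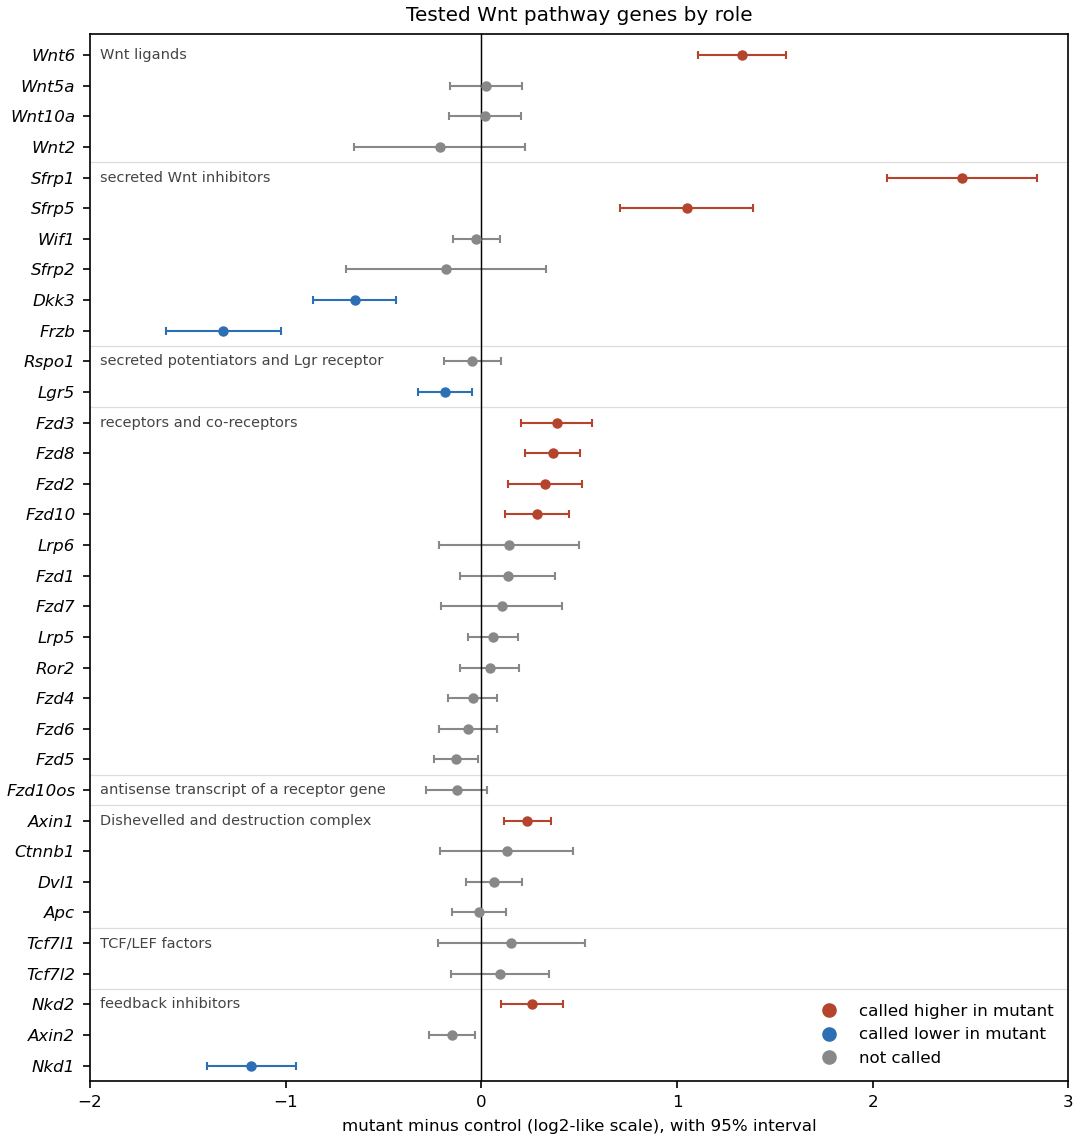
Difference of the 34 tested Wnt pathway genes, mutant minus control on the log2-like scale, by role, with the 95% interval of the limma fit (3 mutant and 3 control arrays). Red points were called higher in mutant nerves, blue points lower and grey points were not called. Sfrp1 at 2.46 and Frzb at -1.32 mark the ends of the range.

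The upstream sequences below are those of the genes that differed by at least 1 and have an entry in the RefSeq promoter table used here. They are shown so that the letters in front of the genes that moved most can be read. Each is the 250 bases before a listed start, 5′ to 3′ on the gene's strand, from GRCm38.p6. For Sfrp5 (chr19:42202253-42202502, minus strand) and Frzb (chr2:80447397-80447646, minus strand) the listed start is that of the RefSeq gene. For Wnt6 (chr1:74771642-74771891, plus strand) and Nkd1 (chr8:88527383-88527632, plus strand) the RefSeq gene begins further upstream, at -17550 and -6291 bases from the listed start, so these are windows before another start. Capitals mark 2 short motifs searched on both strands, the TCF/LEF core TCAAAG and the core GTGGGCG bound by EGR factors, a family that includes EGR2 of myelinating Schwann cells. In the Wnt6 window the capitals are the EGR core as read on the opposite strand.
Wnt6: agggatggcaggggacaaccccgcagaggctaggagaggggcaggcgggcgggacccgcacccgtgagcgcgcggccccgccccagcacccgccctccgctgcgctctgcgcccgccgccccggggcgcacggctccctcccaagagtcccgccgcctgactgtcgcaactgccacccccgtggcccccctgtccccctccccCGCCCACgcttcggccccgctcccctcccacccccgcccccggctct
Sfrp5: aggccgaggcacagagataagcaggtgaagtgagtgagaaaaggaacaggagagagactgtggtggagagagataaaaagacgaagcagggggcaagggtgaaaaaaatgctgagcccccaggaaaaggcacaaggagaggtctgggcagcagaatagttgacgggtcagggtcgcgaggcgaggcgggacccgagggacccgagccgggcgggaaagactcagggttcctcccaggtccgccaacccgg
Frzb: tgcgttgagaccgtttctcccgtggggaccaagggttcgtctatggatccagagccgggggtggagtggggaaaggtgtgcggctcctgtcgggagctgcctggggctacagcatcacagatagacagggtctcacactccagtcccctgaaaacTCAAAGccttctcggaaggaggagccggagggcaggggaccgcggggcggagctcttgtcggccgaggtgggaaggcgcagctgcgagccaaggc
Nkd1: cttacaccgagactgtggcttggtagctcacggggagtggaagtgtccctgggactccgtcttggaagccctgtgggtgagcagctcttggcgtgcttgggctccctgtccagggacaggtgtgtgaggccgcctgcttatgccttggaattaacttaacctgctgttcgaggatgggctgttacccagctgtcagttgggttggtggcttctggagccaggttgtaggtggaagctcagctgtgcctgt

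Frzb has 1 TCF/LEF core and Wnt6 has 1 EGR core, while neither motif was in the Sfrp5 and Nkd1 windows. The table holds 49 windows for 41 of the member genes, some of which overlap each other, and each window has 300 bases with 50 of them after the start. TCAAAG was in 7 of the 49 (14.3%), against 16.0% of all 32851 windows. GTGGGCG was in 14 of the 49 (28.6%), against 7.97% of all windows. The median GC content was 67.3% in the member windows and 52.7% in all windows. A match of these letters is a description and not a binding site.

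Of the 19 Wnt ligands with a probe, 4 were bright enough to be tested and 1 was called. Wnt6, a ligand that can signal through beta-catenin, had signals of 11.81, 12.03 and 12.15 in the mutant nerves and 10.73, 10.67 and 10.59 in the control nerves. Every mutant array lay above every control array by more than the spread within either group. The mean was 11.99 ± 0.172 in mutants and 10.66 ± 0.072 in controls (SD, n = 3 each), a difference of 1.33 (SE 0.0945, adjusted p = 1.13e-04 by limma).

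Both other Wnt6 probes were called higher as well. The second had signals of 11.68, 11.96 and 12.09 in mutants and 10.72, 10.53 and 10.61 in controls, a difference of 1.29. The dimmest probe had 8.73, 8.93 and 8.86 in mutants and 8.36, 8.39 and 8.46 in controls, a difference of 0.44. The direction was thus the same at all 3 probes, of which the brightest and the second were of similar brightness.

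The other 3 tested ligands were not called, and their groups overlapped. Wnt5a, the best known ligand of the non-canonical branch, had 8.95, 8.93 and 8.84 in mutants and 8.97, 8.95 and 8.74 in controls. Wnt10a, a canonical ligand, had 8.77, 8.82 and 8.93 in mutants and 8.83, 8.94 and 8.70 in controls. Both differed by 0.02. Wnt2, also canonical, had 8.87, 8.73 and 8.38 in mutants and 9.02, 9.08 and 8.52 in controls, a difference of -0.21 with an adjusted p of 0.410 by limma. In Wnt2 replicate 3 was the dimmest array of both groups.

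The remaining 15 ligands, with 24 probes, lay below the filter. They were Wnt1, Wnt2b, Wnt3, Wnt3a, Wnt4, Wnt5b, Wnt7a, Wnt7b, Wnt8a, Wnt8b, Wnt9a, Wnt9b, Wnt10b, Wnt11 and Wnt16. No detection calls were used here, so nothing is said of whether these ligands were present.

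Among the 10 secreted inhibitors, 6 were tested, of which 2 were higher, 2 lower and 2 not called. Sfrp1, a Frizzled-related protein that binds Wnts outside the cell, had the largest difference of all members. Its signals were 12.70, 12.22 and 12.77 in mutant nerves and 10.21, 10.20 and 9.91 in control nerves. The lowest mutant array stood far above the highest control array. The mean was 12.57 ± 0.299 in mutants and 10.11 ± 0.171 in controls (SD, n = 3 each), a difference of 2.46 (SE 0.161, adjusted p = 8.13e-05 by limma). A second probe had 11.69, 11.61 and 11.60 in mutants and 9.56, 9.71 and 9.42 in controls, a difference of 2.06.

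Sfrp5, a close relative of Sfrp1, had 11.07, 11.44 and 11.31 in mutants and 10.32, 10.40 and 9.95 in controls. The groups did not overlap, and the mean was 11.27 ± 0.184 in mutants and 10.22 ± 0.241 in controls. The difference was 1.05 (SE 0.143, adjusted p = 0.00183 by limma).

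Frzb, another Frizzled-related protein also known as secreted Frizzled-related protein 3, went the other way. Its signals were 8.36, 8.43 and 8.33 in mutants and 9.72, 9.43 and 9.93 in controls. The mutant arrays lay close to 8.34, the lowest mean that the filter kept, near the dim end of the scale. The difference was -1.32 (SE 0.122, adjusted p = 3.44e-04 by limma). The mean was 8.37 ± 0.0492 in mutants and 9.69 ± 0.25 in controls.

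Dkk3, a Dickkopf family member whose effect on Wnt signalling varies between settings, was the brightest of the genes that fell. It had 12.01, 11.81 and 11.67 in mutants and 12.50, 12.47 and 12.46 in controls. The mutant arrays were lower in every case and more spread out than the controls, with a difference of -0.65 (SE 0.0893, adjusted p = 0.00192 by limma). A second probe had 11.94, 11.65 and 11.56 in mutants and 12.53, 12.24 and 12.28 in controls, a difference of -0.63.

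Sfrp2 and Wif1 were not called. Sfrp2, which like Sfrp1 binds Wnts, had 10.58, 10.02 and 9.90 in mutants and 10.51, 10.52 and 10.01 in controls. The groups overlapped and the difference of -0.18 had a 95% interval of -0.69 to 0.33. Wif1, a secreted Wnt binder of another family, differed by -0.03. Dkk1, Dkk2 and Dkk4, which block the co-receptors LRP5 and LRP6 or modulate them, lay below the filter together with Sfrp4.

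**Figure D2:**
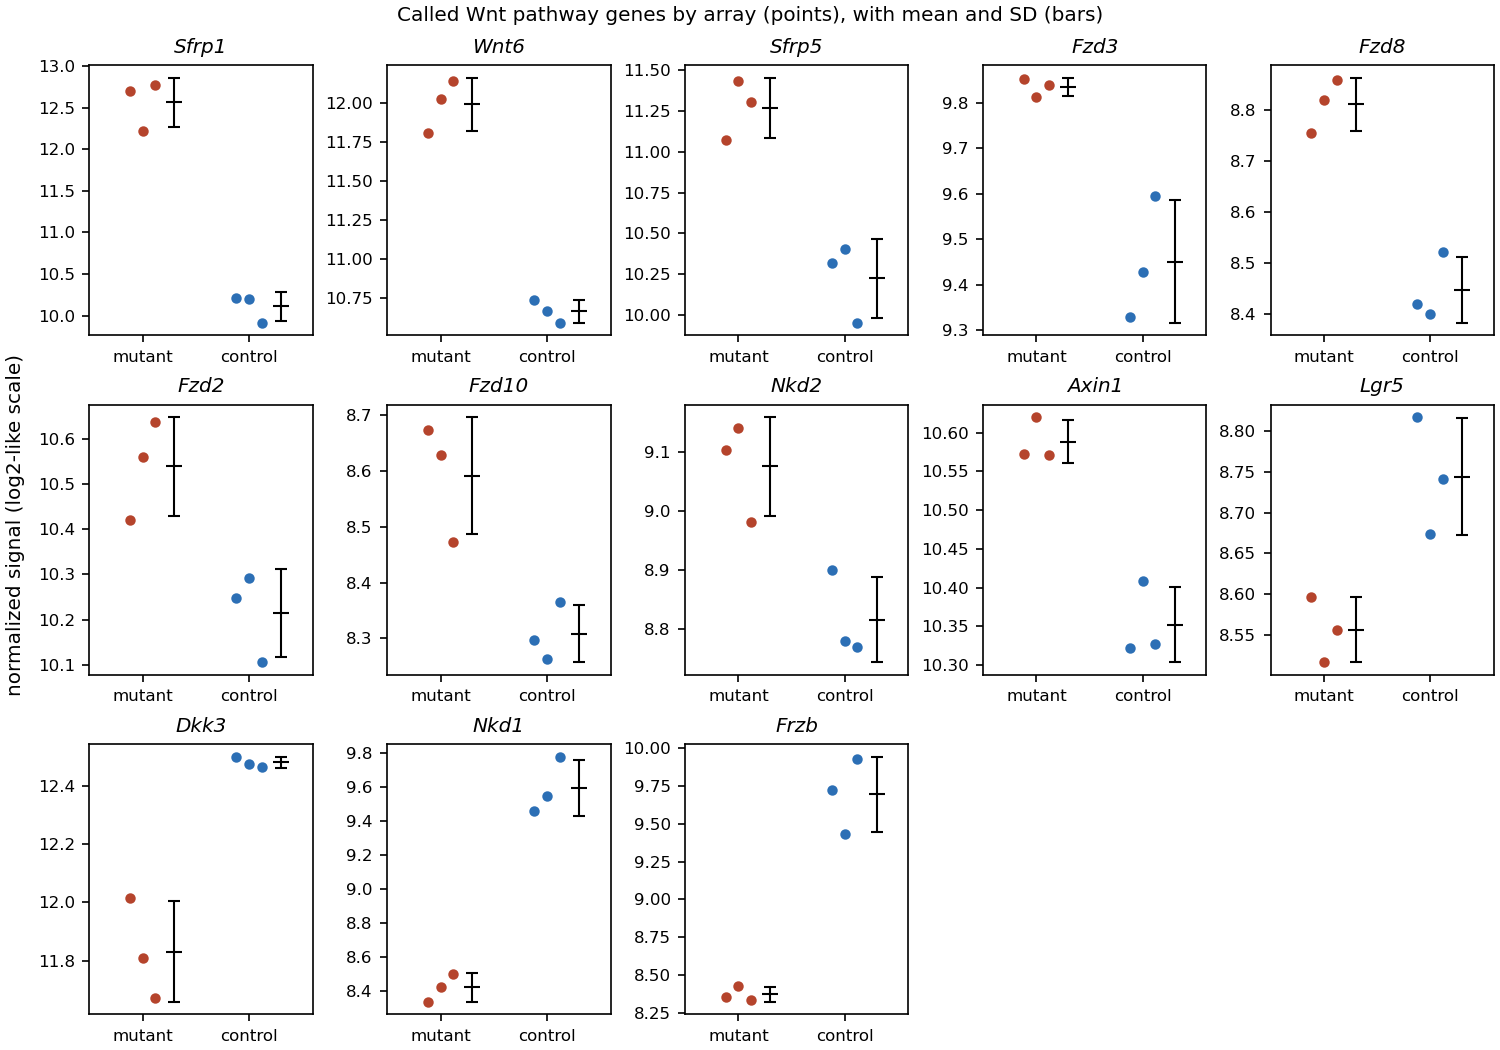
Normalized signal (log2-like scale, a separate axis range for each gene) of the 13 called Wnt pathway genes in each of the 3 mutant arrays (red) and 3 control arrays (blue), with the mean and SD of each group as bars. In none of the 13 do the groups overlap, and the gap runs from the widest, for Sfrp1, to narrow gaps for Fzd10, Nkd2 and Lgr5.

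Of the 4 R-spondins and Lgr5, Rspo1 and Lgr5 were tested. Lgr5, a receptor for R-spondins, had 8.60, 8.52 and 8.56 in mutants and 8.82, 8.67 and 8.74 in controls. The difference of -0.19 (SE 0.0576, adjusted p = 0.0434 by limma) was the smallest of the called ones, and with the replicate number as a block its adjusted p was 0.0554. Its adjusted p was 0.143, 0.0525 and 0.105 without control replicates 1, 2 and 3, and 0.126 and 0.0883 without mutant replicates 2 and 3. Rspo1, a secreted potentiator, differed by -0.05, and Rspo2, Rspo3 and Rspo4 lay below the filter.

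The 14 receptors and co-receptors had the highest share of tested genes, 12 of 14, of which 4 were higher and 0 lower. The 4 were 33.3% of the 12, against 22.0% higher and 17.6% lower among all genes. Fzd10 is among the 4 and was tested only because the mutants were high. All 4 are Frizzled genes, the receptors that bind Wnts at the cell surface. Fzd3, known for its part in axon guidance and planar polarity, had 9.85, 9.81 and 9.84 in mutants and 9.33, 9.43 and 9.59 in controls, a difference of 0.38 (SE 0.0755, adjusted p = 0.0084 by limma). Both of its other tested probes were called higher too, with differences of 0.54 and 0.30. The mutant arrays were nearly equal at the brightest probe, while the controls spread over a wider range.

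Fzd8 had 8.75, 8.82 and 8.86 in mutants and 8.42, 8.40 and 8.52 in controls, a difference of 0.36 (adjusted p = 0.00357 by limma). Fzd2 had 10.42, 10.56 and 10.64 in mutants and 10.25, 10.29 and 10.10 in controls, a difference of 0.33 (adjusted p = 0.0195 by limma). Fzd10 had 8.67, 8.63 and 8.47 in mutants and 8.30, 8.26 and 8.36 in controls, a difference of 0.28 (adjusted p = 0.0191 by limma). The groups were separate for these 3 receptors, with the narrowest gap for Fzd10. Its control mean of 8.31 lay below 8.34, the lowest mean that the filter kept. The adjusted p of Fzd2 was 0.0629 and 0.0509 without mutant replicates 2 and 3, 0.0559 and 0.0634 without control replicates 1 and 3, and 0.0521 after cyclic loess. That of Fzd10 was 0.0654 without mutant replicate 2 and 0.0695 and 0.0714 without control replicates 1 and 2.

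The other 8 tested receptors were not called. Fzd5, a receptor of the canonical branch, had 8.74, 8.75 and 8.72 in mutants and 8.90, 8.84 and 8.87 in controls. Its groups did not overlap, but the difference was -0.13 and the adjusted p by limma 0.0702. The co-receptor Lrp6 had 9.16, 8.73 and 8.75 in mutants and 8.94, 8.77 and 8.53 in controls, a difference of 0.14. Lrp5 differed by 0.06, Fzd1 by 0.13, Fzd7 by 0.10, Fzd4 by -0.05, Fzd6 by -0.07 and the tyrosine kinase receptor Ror2, which binds Wnt5a, by 0.04. Ror1 and Fzd9 lay below the filter. The antisense transcript Fzd10os had 8.33, 8.30 and 8.20 in mutants and 8.47, 8.44 and 8.31 in controls, a difference of -0.13 with an adjusted p of 0.180 by limma, and its groups overlapped.

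In the cytoplasm 4 of 6 genes were tested and 1 was called. Axin1, the scaffold of the destruction complex, had 10.57, 10.62 and 10.57 in mutants and 10.32, 10.41 and 10.33 in controls. The groups were tight and separate, with a difference of 0.24 (SE 0.051, adjusted p = 0.0123 by limma), and the adjusted p was 0.0551 without control replicate 1. Ctnnb1, which encodes beta-catenin, was not called at any of its 4 tested probes. The brightest had 14.06, 13.58 and 13.59 in mutants and 13.64, 13.49 and 13.72 in controls, a difference of 0.13 with a 95% interval of -0.21 to 0.47. Mutant replicate 1 was the highest of the 6 arrays there, and the other mutants lay within the range of the controls. The other 3 probes differed by 0.15, -0.08 and -0.02.

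Apc, which holds beta-catenin in the destruction complex, differed by -0.01, and Dvl1, a Dishevelled protein that links Frizzled to that complex, by 0.06. Neither was called. Dvl2 and Dvl3 lay below the filter.

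Neither tested TCF/LEF factor was called. Tcf7l1, often a repressor of Wnt target genes, had 9.97, 10.49 and 10.59 in mutants and 10.17, 10.27 and 10.16 in controls, a difference of 0.15 (SE 0.157, adjusted p = 0.494 by limma). Mutant replicate 1 was below all controls and the other mutants were above them. Without mutant replicate 1 the difference was 0.34 with an adjusted p of 0.00437. Tcf7l2, a main partner of beta-catenin, differed by 0.10 and 0.12 at its tested probes. Lef1, an activator among these factors, lay below the filter at all 4 of its probes.

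The feedback inhibitors, genes that Wnt signalling is known to raise and whose products then damp it, split. Nkd1, a Naked cuticle protein that binds Dishevelled, had 8.33, 8.42 and 8.50 in mutants and 9.46, 9.55 and 9.78 in controls. Its mutant arrays lay near the filter, as did those of Frzb. The mean was 8.42 ± 0.0835 in mutants and 9.59 ± 0.167 in controls (SD, n = 3 each), a difference of -1.18 (SE 0.0946, adjusted p = 1.90e-04 by limma). A second Nkd1 probe was below the filter in both groups and differed by -0.06, so the fall rests on 1 probe.

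Nkd2, its relative, had 9.10, 9.14 and 8.98 in mutants and 8.90, 8.78 and 8.77 in controls, a difference of 0.26 (SE 0.0665, adjusted p = 0.0234 by limma). This adjusted p was 0.0778 without mutant replicate 2 and 0.0821 and 0.0803 without control replicates 2 and 3. Axin2, the most widely used readout of canonical signalling, had 8.66, 8.72 and 8.69 in mutants and 8.87, 8.81 and 8.83 in controls. Its groups did not overlap, but with a difference of -0.15 (SE 0.0487) the adjusted p by limma was 0.0533. Znrf3, an enzyme that removes Frizzled from the cell surface, lay below the filter.

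The 28 genes below the filter had 42 probes. Their probe means ran from 8.06 to 8.32 in mutants and from 8.06 to 8.33 in controls, with differences between -0.10 and 0.08. When all 45281 probes were tested with limma, 0 of the 28 genes was called.

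Several tested probes were available for 9 members. In 8 of them the probes all differed in 1 direction, the exception being Ctnnb1 with its differences near 0. In 0 of the 9 were some probes called and others not. Among dim probes outside the test, 1 of Dkk3 went in the direction of its bright probes. It had 8.12, 8.19 and 8.22 in mutants and 8.37, 8.50 and 8.44 in controls. Untested dim probes of other called genes differed little, by 0.04 and 0.005 for Fzd10 and by -0.02 for Lgr5. Those of Axin1 and Nkd1 differed by 0.06 and -0.06. The calls of Fzd10, Lgr5, Axin1 and Nkd1 thus each rest on 1 tested probe. A further 32 member genes have 1 probe on the array, so for those no second probe can be set beside the first.

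**Figure D3:**
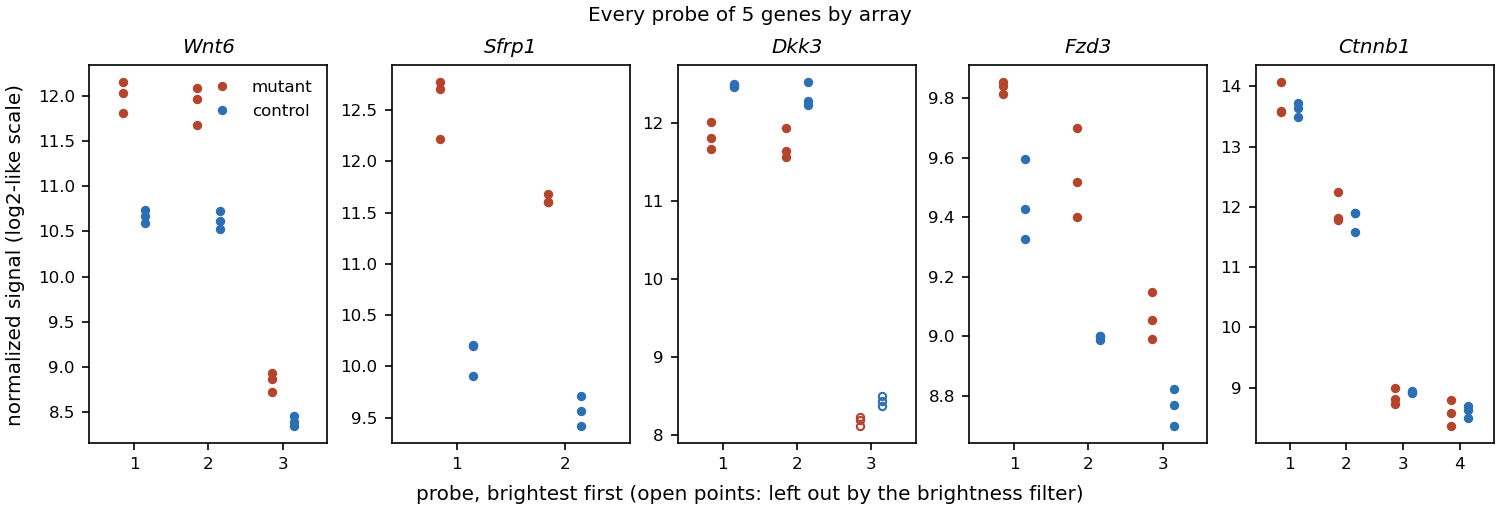
Normalized signal (log2-like scale, a separate axis range for each gene) at every probe of Wnt6, Sfrp1, Dkk3, Fzd3 and Ctnnb1 (the last with 4 probes), brightest probe first, in the 3 mutant arrays (red, left) and 3 control arrays (blue, right). Open points mark a probe left out by the brightness filter. Mutants lie above controls at all probes of Wnt6, Sfrp1 and Fzd3 and below them at all probes of Dkk3, while the groups overlap at the 4 probes of Ctnnb1.

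Part of the spread among the members went with the replicate number. Replicate 3 was the lowest array in both groups for 8 of the 34 tested members (23.5%), against 14.2% of all genes. These were Wnt2, Wnt5a, Fzd10os, Nkd2, Fzd6, Fzd7, Dkk3 and Sfrp2. The full order of the replicate numbers was the same in both groups for 10 of the 34 (29.4%), against 20.0% of all genes. Fzd7, for example, had 9.95, 9.68 and 9.52 in mutants and 9.76, 9.65 and 9.44 in controls, an example chosen after its values were seen. With the number as a block, 9 members were higher and 3 lower, and Lgr5 was the member whose call changed. Mutant replicate 1 was the farthest of its group for 16 of the 34 members (47.1%), against 53.7% of all genes.

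**Figure D4:**
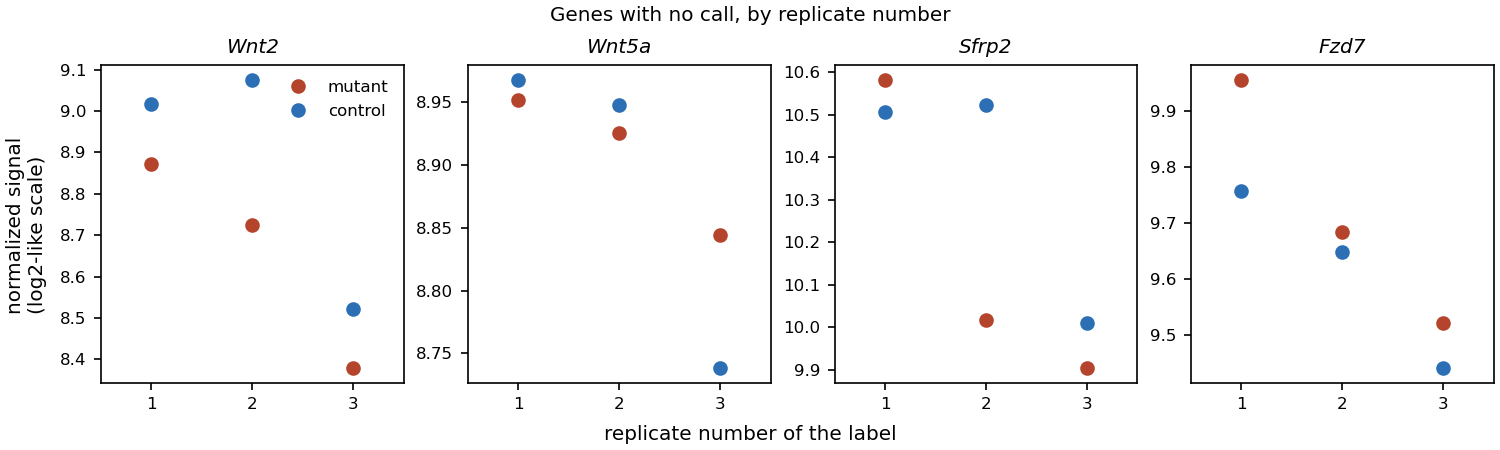
Normalized signal (log2-like scale, a separate axis range for each gene) of Wnt2, Wnt5a, Sfrp2 and Fzd7 by the replicate number of the label, with mutant arrays in red and control arrays in blue. These 4 uncalled genes were chosen after their values were seen, and in each of them replicate 3 is the lowest array of both groups.

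The rest of the pathway was described through 5 lists with 91 genes on the array, of which 71 were tested. In mutant nerves 19 were higher (called), 15 were lower and 37 were not called, with a median difference of 0.02, beside the 22.0% higher and 17.6% lower of all genes. Some of these genes have further tested probes. Of 38 genes with several, 14 had both called and uncalled probes, and in 1, Csnk1d, probes were called in opposite directions.

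Of 12 tested genes for Wnt secretion and other receptors, 4 were higher and 4 lower. Lgr6, like Lgr5 a receptor for R-spondins, had 9.38, 9.51 and 9.39 in mutants and 8.18, 8.17 and 8.19 in controls. The controls lay below the filter's lowest mean, so Lgr6 was tested only because the mutants were high, and the difference was 1.25 (SE 0.0552, adjusted p = 1.62e-05 by limma). A second Lgr6 probe was called higher too, by 1.04. Gpc4, a glypican of the cell surface that binds Wnts, had 10.18, 10.11 and 10.28 in mutants and 9.17, 9.23 and 9.18 in controls, a difference of 1.00 (adjusted p = 6.22e-05 by limma). Sostdc1, a secreted inhibitor of Wnt and BMP signals, had 13.22, 13.43 and 13.32 in mutants and 12.47, 12.34 and 12.36 in controls, a difference of 0.93. In each of these 3 genes the groups lay far apart.

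The largest fall in that list was that of Porcn, the enzyme that attaches the lipid Wnts need for secretion. It had 9.00, 9.01 and 8.95 in mutants and 9.52, 9.50 and 9.42 in controls, a difference of -0.49 (adjusted p = 5.98e-04 by limma). Apcdd1, a membrane inhibitor of Wnt signalling that is also on the list of beta-catenin targets, fell by 0.41.

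Of 16 tested genes of the destruction complex and its regulators, 4 were higher and 2 lower. Tnks, a tankyrase that marks Axin for removal, had 11.25, 10.87 and 10.82 in mutants and 10.31, 10.24 and 10.33 in controls, a difference of 0.69 (adjusted p = 0.00426 by limma), although both of its dim tested probes were not called. A pair of casein kinase genes moved apart, Csnk1g1 with a difference of 0.61 and Csnk1g3 with -0.56, although the dim second probe of Csnk1g1 was not called (0.09). Csnk1d fell by 0.29 at its brightest probe, while its dimmest tested probe was called higher, by 0.47. Ppp2r5c, a regulatory subunit of protein phosphatase 2A, differed by 0.56 and 0.53 at its bright probes, while its 3 dim tested probes were not called and differed by -0.04, -0.09 and -0.05.

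Of 17 nuclear partners and repressors of beta-catenin, 4 were higher and 5 lower. Genes of the Groucho family, which includes co-repressors that bind TCF/LEF factors in place of beta-catenin, moved both ways. Tle4 had 12.07, 11.80 and 11.79 in mutants and 10.45, 10.41 and 10.45 in controls, a difference of 1.45 (SE 0.0846, adjusted p = 5.14e-05 by limma). A dim second Tle4 probe differed by 0.25 and was not called. Tle1 fell by 0.67 and Tle5 by 0.62, although a dim second probe of Tle5 differed by -0.31 and was not called. Ctnnbip1, which keeps beta-catenin from TCF factors, had 10.61, 10.75 and 10.82 in mutants and 11.42, 11.29 and 11.59 in controls, with an adjusted p of 0.00158 by limma. Hbp1, a repressor that opposes TCF factors, differed by 0.51, and its tested probes were not all called.

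Of 17 planar polarity and non-canonical genes, 3 were higher and 3 lower. Prkca, a calcium-dependent protein kinase C, had 10.92, 10.89 and 10.94 in mutants and 12.38, 12.19 and 12.33 in controls, a difference of -1.38 (SE 0.0639, adjusted p = 1.88e-05 by limma). Prickle2, a planar polarity protein, had 11.16, 10.85 and 10.95 in mutants and 11.96, 11.93 and 12.02 in controls, a difference of -0.98. Both were lower in every mutant array. Nfatc3, a calcium-regulated transcription factor, differed by 0.43, and the cadherin Celsr1 and the kinase gene Camk2d both by 0.41. Nfatc3 and Camk2d also had dimmer tested probes that were not called.

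Of 10 tested genes known as beta-catenin targets in other tissues, 4 were higher and 2 lower. Ccnd1, which encodes cyclin D1 of the cell cycle, had 14.73, 14.82 and 14.74 in mutants and 12.89, 12.81 and 12.95 in controls, a difference of 1.87 (SE 0.0581, adjusted p = 5.60e-06 by limma). Its other tested probes differed by 1.79 and 1.99. Cd44, an adhesion molecule, had 11.36, 11.14 and 10.92 in mutants and 10.02, 10.13 and 10.05 in controls, a difference of 1.07. Id2 and Jun, transcription regulators found in immature Schwann cells, differed by 0.44 and 0.37. Gjb6, a connexin, had 8.50, 8.22 and 8.29 in mutants and 9.07, 9.02 and 9.21 in controls, a difference of -0.76, and it was tested only because the controls were high. Myc, Sp5, Notum, Rnf43, Fgf18, Mmp7 and Tnfrsf19 lay below the filter.

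**Figure D5:**
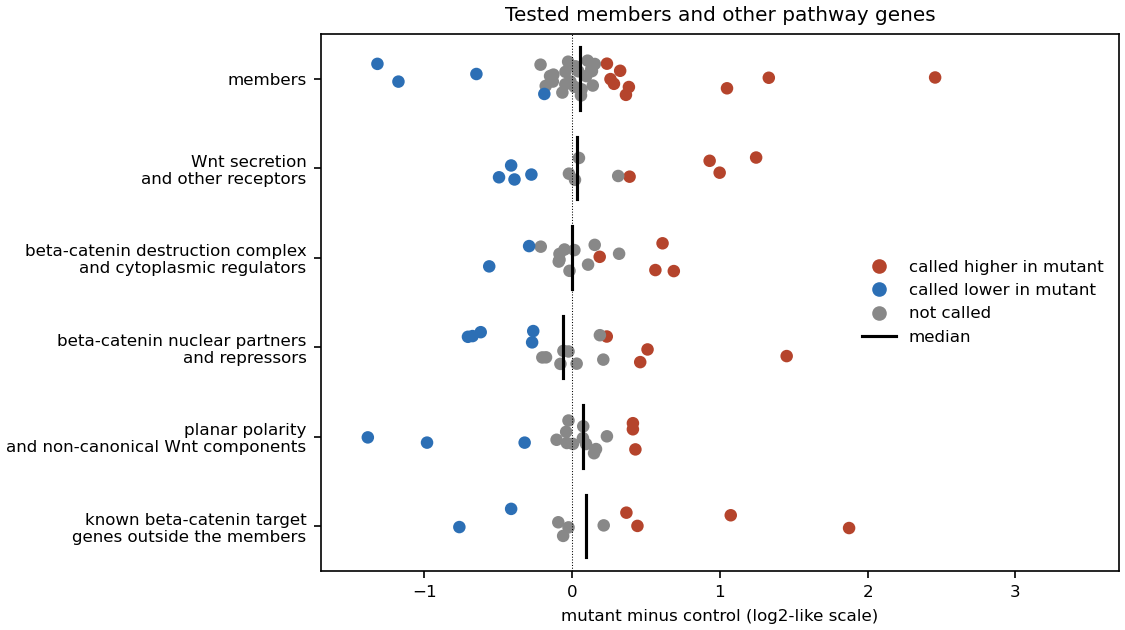
Difference, mutant minus control on the log2-like scale, of each tested member and of each tested gene of the 5 other pathway lists. Points are genes, red for those called higher in mutant nerves, blue for those called lower and grey for those not called, and the black lines are list medians, which lie between -0.06 and 0.09. Every list holds calls in both directions.

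Markers of the cell types in the nerve moved as well. Of 7 tested Schwann lineage markers 0 were higher and 5 lower. Of the lower ones, Gjb1 differed by -0.28 and was tested only because the controls were high. The mean signal of the 7 ran from 11.34 to 11.43 in mutants and from 12.36 to 12.43 in controls. The myelin genes Mag, Mbp and Pmp22 differed by -3.19, -1.33 and -1.21. S100b, also on this list, differed by -1.19 (adjusted p = 0.00236 by limma). Sox10, the transcription factor that defines the lineage, was not called, at 13.98 in mutants and 13.94 in controls. Erbb3 was not called either, with a difference of 0.04, and was tested only because the mutants were above the filter. Of 12 markers of endoneurial and perineurial fibroblasts, 3 were higher and 2 lower, with a mean signal of 12.56 to 12.82 in mutants and 12.49 to 12.62 in controls. Lum, a proteoglycan, Col1a1, a collagen, and the integrin gene Itgb4 were higher, with differences of 0.99, 0.61 and 0.48, while Ly6c1 and the tight junction gene Tjp1 were lower, with -0.65 and -0.33. In whole nerve, fewer cells of a type and less RNA per cell cannot be told apart.

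The mean signal of the other marker lists was 10.07 to 10.21 in mutants and 10.27 to 10.50 in controls for 8 endothelial genes, of which 0 were higher and 3 lower, or 1 higher and 3 lower with the replicate block. For 7 mural genes it was 9.89 to 9.96 in mutants and 9.67 to 10.14 in controls, with 1 higher and 0 lower. For 8 macrophage genes it was 9.96 to 10.18 in mutants and 10.10 to 10.22 in controls, with 0 higher and 2 lower, or 1 higher and 2 lower with the block. For 4 adipocyte genes it was 9.60 to 9.93 in mutants and 9.79 to 10.20 in controls, with 0 called, or 2 lower with the block. For 7 skeletal muscle genes it was 9.47 to 11.23 in mutants and 11.25 to 12.52 in controls, with 1 lower, or 3 lower with the block. Kdr of the endothelial list and Fabp4 and Plin1 of the adipocyte list lay below the filter. The part of these cell types in the differences of the Wnt pathway genes was not tested.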

How the data were processed

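Per the labels, total RNA of 3 mutant and 3 control sciatic nerve samples was put on Illumina Mouse WG-6 version 2 arrays. The deposited log2-like values lie between 7.96 and 15.91. Per the labels' design text, the authors used limma and RMA normalization, and the submitters' processing notes name lumi 1.8.3. It is not settled whether these are plain log2 values or come from lumi's variance-stabilising transform. No source used here states a background correction. All array medians are 8.24. No further normalization was applied.

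The design text states that present calls kept 18420 probes. Brightness stood in for those calls, and the 18420 probes brightest by their mean across the 6 arrays were tested. Probe names are those of the platform annotation, and probes with several symbols or none were not named. All 62 member symbols matched RefSeq.

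limma 3.58.1 in R 4.3.3 was used (lmFit, then eBayes, on 4 residual and 2.63 prior degrees of freedom, 2-sided). Benjamini-Hochberg adjustment ran over the tested probes. Tables and figures were made with Python 3.11.15, pandas 2.3.3 and matplotlib 3.10.9. The limma fit was tested on simulated data in which few probes were changed. Precision is limited by the number of arrays.

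The sample titles carry replicate numbers. Deviations from the group means correlated at 0.165, 0.155 and 0.224 between arrays of the same number and at -0.157 to 0.0283 between other pairs. Deviations cancel out within a group, so the values of the other pairs are not independent of those of the same number. The replicate block took the numbers to pair the samples, which these correlations do not establish. The main fit, from which the calls come, did not use this pairing. The pairing comes from the data and not from a stated litter or batch.

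The members, gene lists and tests were chosen with earlier results of these data known. Called members are named with values, uncalled ones with their difference, and dim ones by name and range. Up to 5 called genes of each further list are named, those with the largest differences. Marker genes and Dicer1 were added as examples of whole lists and of the targeted gene. Alternatives were the filter, the replicate block, the variance model, scaling, the choice of probe and each array left out.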

Additional observations from a re-analysis of the deposited data

How the results depend on the processing

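Of the 13 called members, 8 (Sfrp1, Wnt6, Sfrp5, Fzd3, Fzd8, Dkk3, Nkd1 and Frzb) kept their call under every alternative that tested them, and Frzb, Nkd1 and Fzd8 were not tested among the 10000 brightest probes. With that stricter filter, 1 member was lower in place of 4 and 3 differed by at least 1 in place of 5, since fewer genes were tested. With single arrays left out, 6 to 10 members were higher, 3 to 4 lower and 4 to 5 at least 1 apart, and of the other pathway genes 15 to 21 were higher and 13 to 16 lower. Leaving out mutant replicate 2 or control replicate 1 gave the count of 6. With the replicate block, 9 members were higher, 3 lower and 5 at least 1 apart, against 18 higher and 14 lower other pathway genes. Apart from Lgr5 it changed no member's call.

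The calls of Axin1, Fzd10, Fzd2, Lgr5 and Nkd2 were lost in at least 1 alternative, and the cause was not tested. Axin2 was called with all probes tested (adjusted p = 0.0185 by limma), with limma-trend (0.0486) and after cyclic loess (0.0443). It was also called with probes averaged by gene (0.0420 by limma). Axin2 has 1 probe, so that averaging left its difference at -0.15. It was not called with the replicate block (0.115 by limma) or with any single array left out (0.0875 to 0.168 by limma). Fzd5 was called with all probes tested (0.0152 by limma) and in no other alternative, with 0.135 by limma in the replicate block. No called member changed sign. In 7 uncalled ones the sign turned with an array left out, and the differences then ran from -0.0559 (without mutant replicate 1) to 0.0188 (without mutant replicate 2) for Apc, from -0.0308 to 0.212 for Ctnnb1, from -0.0124 to 0.204 for Fzd7, from -4.67e-04 to 0.236 for Lrp6, from -0.0053 to 0.200 for Tcf7l2, from -0.0419 to 0.0737 for Wnt10a and from -0.0510 to 0.0640 for Wnt5a. For Ctnnb1, Fzd7, Lrp6 and Tcf7l2 the negative value was the one without mutant replicate 1, and for Wnt10a and Wnt5a the lowest was the one without control replicate 3. After cyclic loess the mean of the array medians over the tested probes differed by -0.0187 (mutant minus control), against 0 as deposited. As deposited these medians were 9.18 on every array, so centring on them could move nothing and did not test the calls. How far dim probes understate a difference is not known on this scale.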
